A study of Homo sapiens with 48 samples.

Results

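The circadian clock genes followed here were 10 in number: PER1, PER2, PER3, CRY1, CRY2, NR1D1, NR1D2, BHLHE40, DBP and CIART. These 10 genes were taken as a list by symbol from the 58721 genes of 2 tables, and each symbol matched 1 Ensembl gene of GENCODE 29. RNA came from DLD-1, a human colorectal cancer cell line, as 3 lines each with TIR1, a plant receptor that marks degron-tagged proteins for destruction when auxin is present. The parental line had no tag, and the CNOT1-AID and CNOT4-AID lines carried an auxin-inducible degron (AID) at the CNOT1 or CNOT4 locus. CNOT1 is the scaffold of CCR4-NOT, the complex that shortens mRNA poly(A) tails, and CNOT4 is a ubiquitin ligase associated with it. For steady-state levels each line was sampled at 8 h and 24 h, left untreated or given 1 mM auxin. For decay each line was sampled after 2 h of 1 mM auxin and then 0, 3, 6 or 12 h of 1 µM triptolide, a drug that blocks the start of transcription. Every group had 2 libraries, 48 in all, and the labels do not say how many clones stand behind a tagged line.

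The clock is a loop of transcription and decay. CLOCK and ARNTL (BMAL1) bind E-boxes and drive the genes for PER and CRY, which feed back and repress CLOCK and ARNTL. NR1D1 and NR1D2 (REV-ERBα and REV-ERBβ) repress ARNTL through sites called ROREs, BHLHE40 (DEC1) and CIART repress E-box genes, and DBP carries the rhythm to D-box genes. A loop of this kind needs its repressor mRNAs to be short-lived. CCR4-NOT reaches many unstable mRNAs through proteins bound in the 3′ UTR, among them Pumilio proteins and proteins that bind AU-rich elements.

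Of the 10 genes 4 had an E-box in the promoter windows searched, and 2 upstream stretches are shown because they hold it. They come from RefSeq (GRCh38.p14), run 5′ to 3′ on the gene's strand within the 250 bases before a start site, and leave out bases that GENCODE 29 marks as exon. Capitals mark an E-box (CACGTG), a D-box (TTANGTAA) or a RORE, searched on both strands. In PER1 the stretch is chr17:8152436-8152654, minus strand. In NR1D2, at the second of 2 start sites, it is chr3:23945871-23946120, plus strand.
PER1: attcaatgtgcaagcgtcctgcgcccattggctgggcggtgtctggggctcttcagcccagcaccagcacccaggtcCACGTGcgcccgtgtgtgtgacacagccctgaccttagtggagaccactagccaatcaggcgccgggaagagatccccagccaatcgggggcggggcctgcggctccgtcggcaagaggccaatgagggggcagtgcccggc
NR1D2: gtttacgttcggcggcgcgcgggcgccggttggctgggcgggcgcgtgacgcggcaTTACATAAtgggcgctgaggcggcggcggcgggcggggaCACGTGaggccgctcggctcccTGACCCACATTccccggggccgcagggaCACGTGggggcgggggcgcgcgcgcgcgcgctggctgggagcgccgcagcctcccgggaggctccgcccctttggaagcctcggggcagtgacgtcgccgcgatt
The PER1 stretch held 1 E-box, and that of NR1D2 held 2 E-boxes, 1 D-box and 1 RORE that did not overlap. Of 35116 promoter windows of this length, 6.345% held an E-box, 1.979% a D-box and 0.265% a RORE. Among the 13 windows of the members, CIART had 3 E-boxes, BHLHE40 had 1 and the first PER3 window had 1 D-box. The letters of the 3 motifs were not found in the windows of PER2, CRY1, CRY2, NR1D1 and DBP. A match is a description of the letters and not a measured site.

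The 3′ UTR sites of NR1D1, BHLHE40, PER1 and PER2 are shown as examples. Sites in PER3, CRY1, NR1D2 and CIART were also found and are not printed. A link between sites and decay was not tested. Capitals mark a Pumilio element (TGTANATA) or an AU-rich element (TATTTAT) on the sense strand, in the GENCODE 29 principal transcript on GRCh38, with 11 bases on either side.
NR1D1 Pumilio element, chr17:40092910-40092939, minus strand: ctgagccttctTGTAAATAcctgcctccct
NR1D1 AU-rich element, chr17:40092966-40092994, minus strand: aaccagaatctTATTTATattgttataaa
BHLHE40 Pumilio element, chr3:4985087-4985116, plus strand: aggtgtaaaatTGTAAATAtttttatctat
PER1 AU-rich element, chr17:8140707-8140735, minus strand: ggggctgcactTATTTATtgcggggagac
PER2 Pumilio element, chr2:238244202-238244231, minus strand: ccgaagagataTGTAAATAagctctcagag
NR1D1, with a 3′ UTR of 296 bases, held 1 element of each kind, and 6.868% of genes with a 3′ UTR of like length (0.8 to 1.25 times) held the Pumilio letters and 9.488% the AU-rich ones. BHLHE40 and PER2 held 1 Pumilio element each, where 28.409% and 37.191% of like-length genes held any. PER1 held 1 AU-rich element, where 16.918% did. CRY1 held 2 Pumilio elements in 638 bases, against 13.865% of like-length genes with any. NR1D2 held 2 Pumilio elements and 1 AU-rich element in 3199 bases, a length at which 46.061% and 56.737% of genes hold them. CRY2 (2337 bases) and DBP (807 bases) held neither. The Pumilio letters occurred in NR1D1 and BHLHE40, lost fastest below, in PER2 and PER3, and in CRY1 and NR1D2, lost slowest. Among the mRNAs followed under triptolide, the AU-rich letters occurred in NR1D1 and PER1, lost fast, and in NR1D2, with the long 3′ UTR.

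The steady-state values are TPM, a relative abundance corrected for gene length, whose depth is unknown. The triptolide values are counts, 18216427 to 26723618 per library. The degron acts on the protein, so the mRNA of CNOT1 or CNOT4 does not check the labels. Mean levels of 1 TPM or more were found for 10 of 11 colon epithelial, 1 of 5 blood, 0 of 5 fibroblast and 0 of 4 endothelial markers. In the triptolide set the pair of parental libraries at 0 h agreed least, with a chi-square of 94.4 per degree of freedom against 2.8 to 22.0 in the other 11 pairs. ERCC spike-in RNA took 2.25% and 3.92% of counts in the CNOT4-AID pair at 12 h. No pair differed by as little as counting noise.

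Depletion of CNOT1 raised most of the clock repressors. With auxin for 8 h, 7 of the 8 members that could be tested rose in CNOT1-AID cells, and after 24 h 6 of 8 did. None fell. Over all 14921 genes tested, 33.1% were higher at 8 h and 36.7% at 24 h, so a rise was common among other genes too. Protein-coding genes took 51.7%, 52.1%, 54.7% and 52.3% of TPM in the 4 CNOT1-AID libraries with auxin and 42.6% to 47.2% in the 4 without. The part of that shift in these results was not tested beyond a fit on protein-coding genes only, in which 7 members were called at 8 h and 6 at 24 h. The median fitted difference of the 8 members was 1.63 at 8 h and 1.49 at 24 h on the log2 scale, against 0.0 and -0.01 over all genes tested. Only PER3 and CIART failed the filter of 1 TPM in 2 libraries. The other 8 members reached 1 TPM in all 24 libraries, so no member passed through its high group alone. In bulk RNA, fewer cells of a kind and less RNA per cell cannot be told apart.

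**Figure D1:**
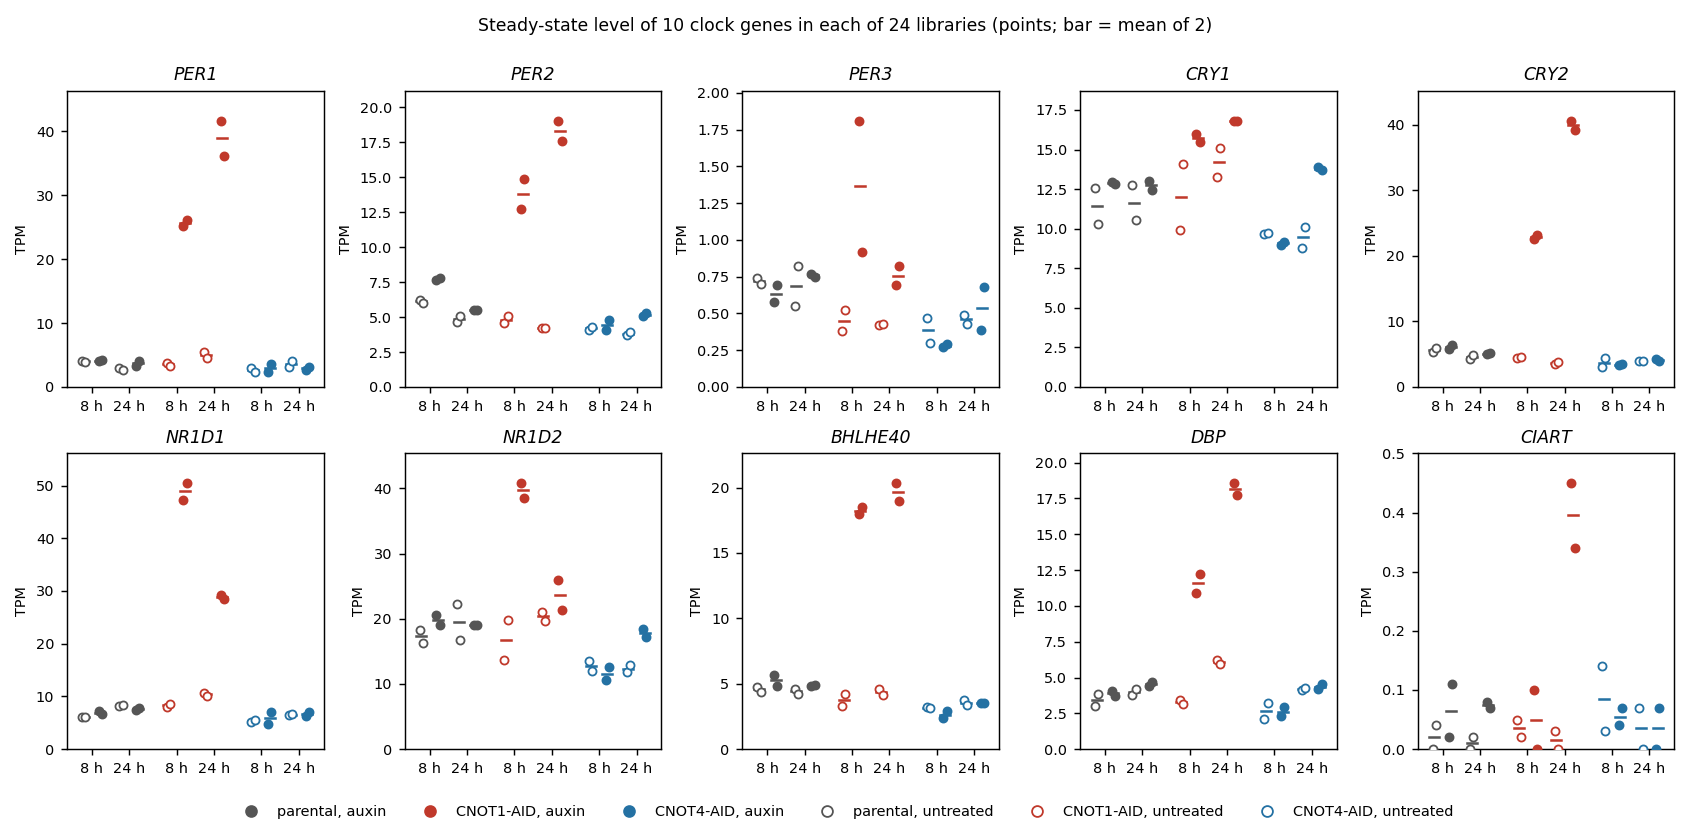
Steady-state level (TPM, linear axis from 0) of the 10 genes in each of 24 libraries, grouped by line and time, with open points for untreated and filled points for auxin and a bar for the mean of 2 libraries. In CNOT1-AID cells PER1 reached 41.68 and 36.17 TPM at 24 h of auxin, whereas the other 20 libraries without CNOT1 depletion lay between 2.27 and 5.46.

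The period genes encode the core of the repressor complex. PER1 stood at 3.81 and 3.28 TPM in untreated CNOT1-AID cells at 8 h, and at 25.16 and 26.18 with auxin. At 24 h it stood at 5.46 and 4.48 TPM untreated and at 41.68 and 36.17 with auxin. Both auxin pairs lay far above every other library. On the fitted scale (log2 of TPM scaled with TMM plus 0.5) PER1 rose 5.30-fold at 8 h (log2 2.41 ± 0.15 SE, limma adjusted p = 4.97e-10) and 6.02-fold at 24 h (2.59 ± 0.15, adjusted p = 9.07e-11). Ratios of mean TPM, without TMM scaling and the added 0.5, were larger, at 7.24 and 7.83.

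PER2 rose less at first and more later. It stood at 4.57 and 5.06 TPM untreated and 12.74 and 14.86 with auxin at 8 h. At 24 h it stood at 4.25 and 4.23 TPM untreated and 19.03 and 17.59 with auxin. The fitted rise was 2.21-fold at 8 h (log2 1.14 ± 0.08) and 3.31-fold at 24 h (1.73 ± 0.08). PER3, the third period gene, was barely expressed, at 0.27 to 1.81 TPM over all libraries. Its highest value, 1.81 TPM, came from 1 CNOT1-AID library with 8 h of auxin, whose partner had 0.92, against 0.38 and 0.52 untreated. Fitted without the filter on low values, the difference of PER3 at 8 h was 0.77 ± 0.20 (adjusted p = 0.00639) and at 24 h 0.30 ± 0.20 (adjusted p = 0.281).

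The cryptochromes, partners of PER in repression, parted ways. CRY2 stood at 4.37 and 4.54 TPM untreated and at 22.52 and 23.21 with auxin at 8 h. After 24 h it stood at 3.47 and 3.76 TPM untreated and at 40.64 and 39.20 with auxin. The groups did not overlap, and its 8.18-fold rise at 24 h (log2 3.03 ± 0.13, adjusted p = 2.37e-12) was the largest of the members. CRY1, at 9.90 and 14.08 TPM untreated and 15.96 and 15.45 with auxin at 8 h, was the one testable member with no call at either time. Its fitted difference was 0.11 ± 0.12 at 8 h and -0.02 ± 0.12 at 24 h, and with ERCC scaling these became 0.56 (adjusted p = 0.00924) and 0.35 (adjusted p = 0.0846).

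The nuclear receptors NR1D1 and NR1D2 rose early, and their rise then shrank. NR1D1 stood at 8.00 and 8.63 TPM untreated and at 47.32 and 50.49 with auxin at 8 h. At 24 h it stood at 10.74 and 10.13 TPM untreated and at 29.21 and 28.57 with auxin. The auxin pair was above the untreated pair at both times, by 4.58-fold at 8 h (log2 2.19 ± 0.08) and 2.25-fold at 24 h (1.17 ± 0.08). NR1D2 stood at 13.67 and 19.86 TPM untreated and 40.85 and 38.57 with auxin at 8 h. At 24 h the pairs were close, at 21.11 and 19.70 TPM untreated and 25.97 and 21.31 with auxin. NR1D2 rose 1.93-fold at 8 h (log2 0.95 ± 0.11, adjusted p = 1.28e-06), and its difference at 24 h was -0.05 ± 0.11, or 0.32 with ERCC scaling (adjusted p = 0.113).

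BHLHE40, the E-box repressor DEC1, held a steady rise. It stood at 3.29 and 4.22 TPM untreated and 17.95 and 18.50 with auxin at 8 h. At 24 h it stood at 4.58 and 4.13 TPM untreated and 20.35 and 19.00 with auxin. These were rises of 3.63-fold (log2 1.86 ± 0.08) and 3.47-fold (1.80 ± 0.08). DBP, the activator of D-box genes, stood at 3.42 and 3.15 TPM untreated and 10.90 and 12.23 with auxin at 8 h, and at 6.25 and 5.94 against 18.58 and 17.77 at 24 h. Its rises were 2.62-fold (log2 1.39 ± 0.15) and 2.37-fold (1.24 ± 0.15). CIART, the repressor also called CHRONO, lay at 0.0 to 0.14 TPM in the 20 libraries without CNOT1 depletion and at 0.45 and 0.34 TPM after 24 h of auxin in CNOT1-AID cells. Without the filter its fitted difference at 24 h was 0.67 ± 0.12 (adjusted p = 0.000201), at a level too low for a fold to be read.

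**Figure D2:**
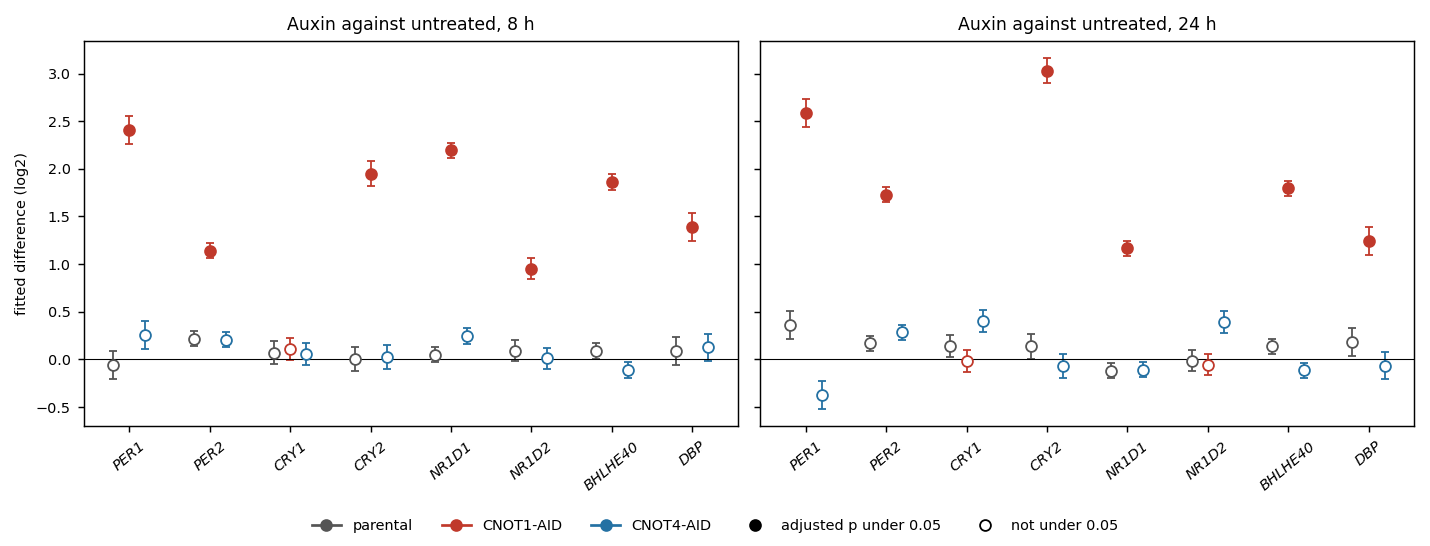
Fitted difference between auxin and untreated cells (log2, y axis) for the 8 members tested, at 8 h (left) and 24 h (right), in the parental, CNOT1-AID and CNOT4-AID lines, with bars for the SE and filled points for an adjusted p under 0.05. Filled points occur in CNOT1-AID cells alone, 7 at 8 h and 6 at 24 h, from 0.95 (NR1D2) to 3.03 (CRY2).

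These calls depended little on how libraries were scaled, but the share of genes around them did. With ERCC scaling the median of all genes moved up by 0.41 at 8 h and 0.31 at 24 h, and 52.1% and 47.0% of genes were then higher, with 9.85% and 19.4% lower. The split of calls at 8 h was 4933 higher and 4441 lower with TMM and 7780 and 1470 with ERCC scaling. At 24 h it was 5472 and 5198 with TMM and 7014 and 2891 with ERCC. With ERCC scaling all 8 members were called at 8 h and the same 6 at 24 h, with PER1 at 2.86 and 2.95 and CRY2 at 2.40 and 3.39.

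The order of the levels changed with CNOT1 depletion. In the 20 libraries without it, NR1D2 had the highest median (17.7 TPM), followed by CRY1 (12.5), NR1D1 (7.0), PER2 (4.91), CRY2 (4.36), BHLHE40 (4.17), DBP (3.95) and PER1 (3.47). The range of each gene overlapped that of the next, but these ranges pool all lines and both times. By group mean NR1D2 lay above CRY1, and CRY1 above NR1D1, in every group without CNOT1 depletion. In untreated parental cells at 8 h they stood at 17.3, 11.4 and 6.2 TPM. The medians of PER3 (0.505) and CIART (0.035) lay below those of all other members. After 24 h of auxin in CNOT1-AID cells the highest means were those of CRY2 (39.9 TPM ± 1.02 SD, n = 2) and PER1 (38.9 ± 3.90), which overlapped, followed by NR1D1 (28.9 ± 0.453) and NR1D2 (23.6 ± 3.30). BHLHE40 (19.7 ± 0.955), PER2 (18.3 ± 1.02), DBP (18.2 ± 0.573) and CRY1 (16.8 ± 0.0212) came last, where BHLHE40 overlapped PER2 and PER2 overlapped DBP.

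Auxin alone gave no call among the members. In the parental line 0 of 8 were called at 8 h and 0 of 8 at 24 h, with 0.0201% and 0.0% of all genes called in either direction. By limma without adjustment, 1 of 8 (PER2, 0.22 ± 0.08) had p under 0.05 at 8 h and 2 of 8 (PER2, 0.17 ± 0.08, and PER1, 0.36 ± 0.15) at 24 h. Over all genes 5.60% had an unadjusted p under 0.05 at 8 h and 5.06% at 24 h. The difference between the responses of the CNOT1-AID and parental lines was therefore tested directly. It was called higher for 7 of 8 members at 8 h (27.0% of all genes) and for 6 of 8 at 24 h (32.3%). The sizes at 8 h ran from 0.86 ± 0.16 (NR1D2) to 2.46 ± 0.21 (PER1), and at 24 h from 1.06 ± 0.21 (DBP) to 2.90 ± 0.18 (CRY2). CRY1 was called at neither time (0.04 ± 0.16 and -0.15 ± 0.16), nor was NR1D2 at 24 h (-0.04 ± 0.16).

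CNOT4 depletion gave no call among the members. At 8 h 0 of 8 were called (0.288% of all genes in either direction), and 2 of 8 had an unadjusted p under 0.05 by limma, NR1D1 (0.25 ± 0.08) and PER2 (0.21 ± 0.08), against 10.7% of all genes. In replicate 1 of that auxin pair protein-coding genes took 30.6% of TPM, and without it 0 of 8 were called as well. At 24 h 0 of 8 were called (4.51% of all genes) and 4 of 8 had an unadjusted p under 0.05, against 22.5% of all genes. Of those 4, 3 lay just above the threshold: CRY1 (0.41 ± 0.12, adjusted p = 0.0552), NR1D2 (0.39 ± 0.11, adjusted p = 0.0547) and PER2 (0.28 ± 0.08, adjusted p = 0.0507). CRY1 stood at 8.77 and 10.12 TPM untreated and 13.89 and 13.70 with auxin, so these pairs did not overlap. PER1 had a difference of -0.37 ± 0.15 (adjusted p = 0.156). Against the parental response, 0 of 8 members were called at 8 h (0.0134% of all genes) and 0 of 8 at 24 h (0.067%), with 0 and 3 at an unadjusted p under 0.05 (7.11% and 15.6% of all genes). With tests on protein-coding genes only or with a filter of 5 TPM, CRY1, NR1D2 and PER2 were called in CNOT4-AID cells at 24 h, where 7.74% and 8.23% of genes were.

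The response to CNOT1 loss changed with time for 4 of 8 members. Between 8 h and 24 h the auxin response grew for CRY2 (by 1.08 ± 0.18, adjusted p = 0.000261) and PER2 (0.59 ± 0.11, adjusted p = 0.000667). It shrank for NR1D1 (-1.03 ± 0.11, adjusted p = 5.17e-06) and NR1D2 (-1.01 ± 0.16, adjusted p = 0.000138). These were 2 of 8 members higher against 17.4% of all genes, and 2 of 8 lower against 18.9%, shares near those of other genes. PER1 (0.18 ± 0.21), BHLHE40 (-0.06 ± 0.11), DBP (-0.14 ± 0.21) and CRY1 (-0.13 ± 0.16) were not called.

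Single members also shifted with time in culture and between untreated lines. A tag cannot be told apart there from other differences between lines. Over the untreated libraries of all 3 lines, DBP was higher at 24 h than at 8 h (0.44 ± 0.08, adjusted p = 0.00318), as was NR1D1 (0.23 ± 0.05, adjusted p = 0.00416). PER2 was lower (-0.30 ± 0.05, adjusted p = 0.000589). These were 2 of 8 higher and 1 of 8 lower, against 5.61% and 4.66% of all genes. With ERCC scaling, which moved the median of all genes by -0.18, NR1D1 was at 0.05 and no longer called. In untreated CNOT1-AID against untreated parental cells, NR1D1 (0.38 ± 0.06) and PER1 (0.32 ± 0.10) were higher and CRY2 (-0.28 ± 0.09) and PER2 (-0.22 ± 0.06) lower, 2 of 8 each way against 10.1% and 10.6% of genes. NR1D1 alone was called in all the settings tried there, whereas PER1 lost its call without 6 and CRY2 without 4 of the 8 single libraries. In untreated CNOT4-AID cells NR1D2 (-0.27 ± 0.08) and PER2 (-0.16 ± 0.06) were lower, 2 of 8 against 20.2% of genes in either direction. Each of these calls was lost without at least 4 of the 8 single libraries, and by limma 0 members were called with ERCC scaling.

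Triptolide showed how fast these mRNAs disappear. In parental cells 8 of the 9 members tested declined over 12 h (48.3% of 16806 genes did), with only NR1D2 not called, and CIART, with 0 to 4 counts per library, was not tested. Slopes are in log2 units per hour after scaling to ERCC RNA. The parental half-lives they give ran from 1.94 h (NR1D1) and 2.34 h (BHLHE40) through 3.26 h (PER1), 4.41 h (DBP) and 5.71 h (PER2) to 6.30 h (PER3), 8.11 h (CRY2) and 10.1 h (CRY1). Slopes moved by their SE either way gave overlapping ranges for PER3 (5.02 to 8.45 h), CRY2 (6.73 to 10.2 h) and CRY1 (7.98 to 13.7 h). CRY1 was at 106% of its 0 h mean at 3 h and 103% at 6 h, so 10.1 h does not describe a steady loss. The median slope of the 9 members was -0.18, against -0.07 for all genes tested.

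**Figure D3:**
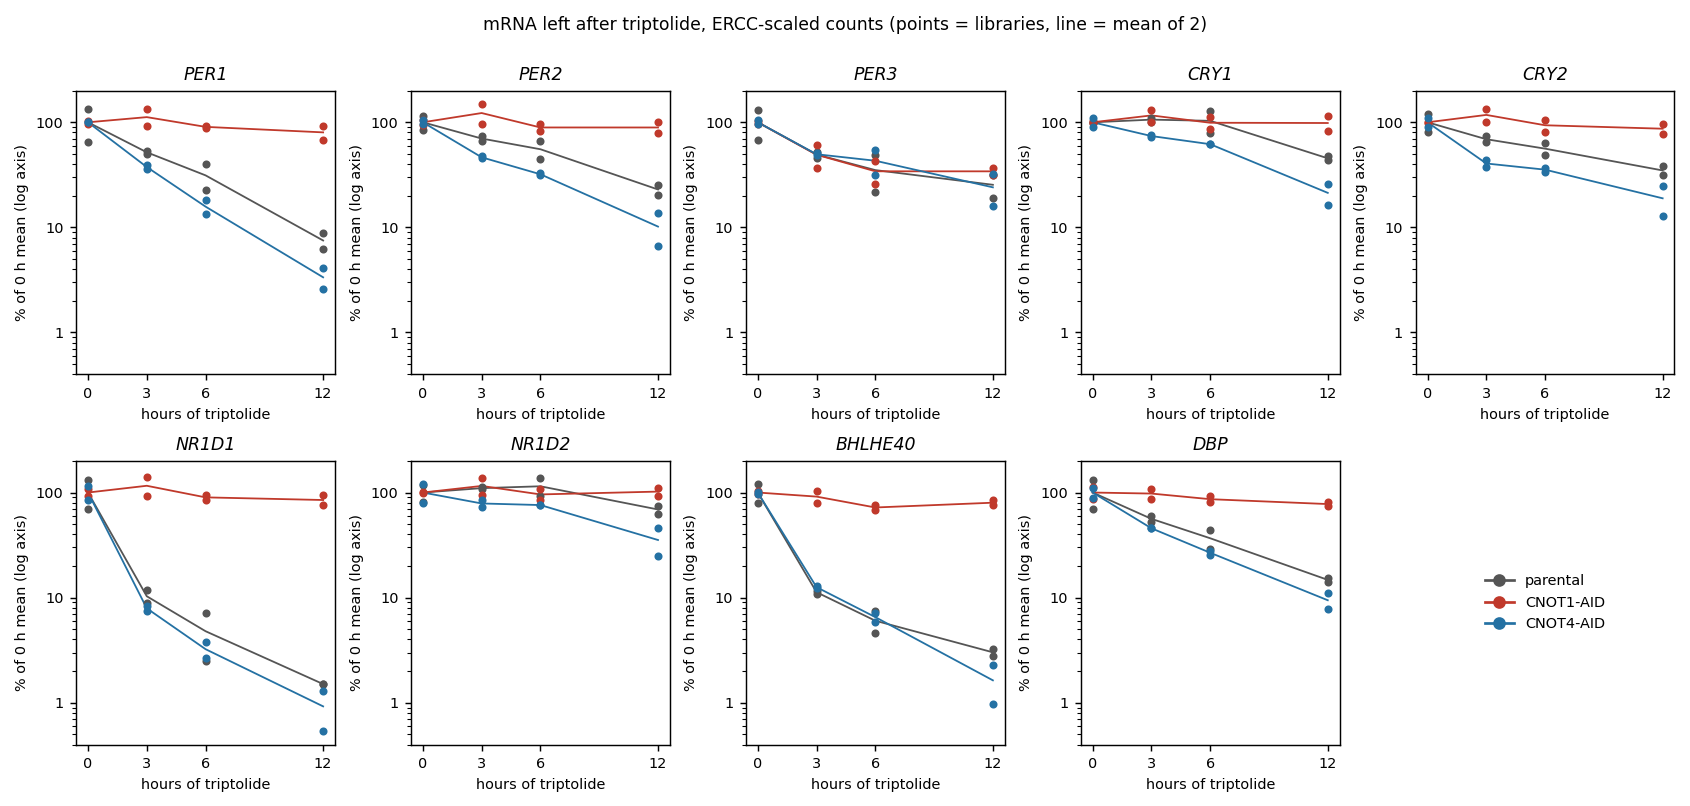
mRNA left after 0, 3, 6 and 12 h of triptolide (x axis), as percent of the mean at 0 h of the same line (y axis, log scale), from counts scaled to ERCC RNA, for the 9 members with enough counts, with points for libraries and lines for means of 2. At 12 h NR1D1 was at 1.50% in parental cells and at 84.9% in CNOT1-AID cells.

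NR1D1 and BHLHE40 vanished within hours. In parental cells NR1D1 had 1350 and 1027 counts at 0 h, 124 and 175 at 3 h, 45 and 64 at 6 h and 24 and 29 at 12 h. In CNOT1-AID cells it had 2125 and 2225 counts at 0 h, 2602 and 2501 at 3 h, 3059 and 2516 at 6 h and 2799 and 2571 at 12 h. Scaled to ERCC RNA, 10.3% ± 2.06 (SD, n = 2) was left at 3 h in parental cells, against 116% ± 33.2 in CNOT1-AID and 7.91% ± 0.713 in CNOT4-AID cells. The loss was not log-linear: over the first 3 h alone the parental half-life of NR1D1 was 0.916 h, shorter than that over 12 h.

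BHLHE40 had 556 and 522 counts in parental cells at 0 h, 68 and 77 at 3 h and 23 and 24 at 12 h. In CNOT1-AID cells it had 594 and 564 counts at 0 h, 599 and 489 at 3 h and 669 and 680 at 12 h. At 3 h 11.3% ± 0.517 was left in parental cells, 91.5% ± 15.9 in CNOT1-AID and 12.6% ± 0.404 in CNOT4-AID cells. Its half-life over the first 3 h was 0.954 h in parental cells.

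These declines were flatter in CNOT1-AID cells. Every triptolide library had auxin, so depletion cannot be told apart there from other differences between the lines. The slope was higher (slower loss) in CNOT1-AID than in parental cells for 6 of 9 members, against 18.8% of all genes, and lower for none of them. The differences per hour were 0.49 ± 0.09 for NR1D1 (edgeR adjusted p = 0.000567), 0.40 ± 0.08 for BHLHE40 (adjusted p = 0.000526), 0.27 ± 0.04 for PER1 (adjusted p = 5.70e-08), 0.19 ± 0.04 for DBP, 0.15 ± 0.03 for PER2 and 0.10 ± 0.03 for CRY2 (adjusted p = 0.0371). CRY1 (0.09 ± 0.03, adjusted p = 0.0610), NR1D2 (0.04 ± 0.03) and PER3 (0.04 ± 0.06) were not called. The median of the 9 members was 0.15, against 0.03 for all genes. Over 0 to 6 h only, NR1D1, BHLHE40 and PER1 were called, 3 of 9 members where 5.58% of all genes were called in either direction, and DBP (0.21, adjusted p = 0.102), PER2 (0.12, adjusted p = 0.468) and CRY2 (0.12, adjusted p = 0.460) were not. The median slope difference of all genes and the split of calls depend on the scaling: 3167 genes were higher and 158 lower with ERCC scaling, and 3446 and 2645 with TMM. With TMM scaling 6 members were called, with CRY1 (0.05, adjusted p = 0.0277) in place of CRY2 (0.06, adjusted p = 0.0634).

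The level left at 12 h shows the same order. PER1 was at 7.50% ± 1.89 in parental cells, 80.2% ± 17.4 in CNOT1-AID and 3.35% ± 1.10 in CNOT4-AID cells. DBP was at 14.8% ± 0.778, 77.7% ± 5.25 and 9.44% ± 2.41 in the same lines, and PER2 at 22.9% ± 3.50, 89.2% ± 14.9 and 10.2% ± 4.92. For each of these 3 genes the CNOT1-AID pair lay above both other pairs. In CNOT1-AID cells only 1 of 9 members, PER3, still declined with a call (-0.12 ± 0.04 per hour, adjusted p = 0.0408), against 10.9% of all genes. PER3 was at 34.1% ± 4.10 at 12 h in CNOT1-AID cells and at 25.4% ± 8.80 in parental cells, on 10 to 59 counts per library. That call was lost in 4 of 7 alternatives, among them TMM scaling (adjusted p = 0.0850) and DESeq2 (adjusted p = 0.0750).

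**Figure D4:**
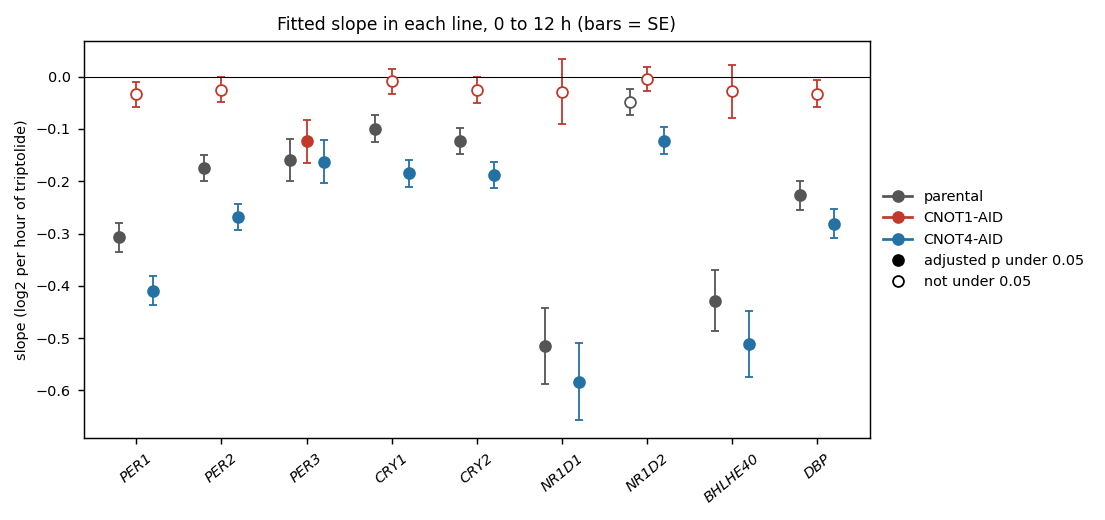
Fitted slope over 0 to 12 h of triptolide (log2 per hour, y axis) of the 9 members tested in the parental, CNOT1-AID and CNOT4-AID lines, with bars for the SE and filled points for an adjusted p under 0.05. CNOT1-AID slopes lie near 0 except that of PER3 (-0.12), and CNOT4-AID slopes lie from -0.12 (NR1D2) to -0.58 (NR1D1).

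The first 3 h alone separated the 2 fastest members. The change over that time differed between CNOT1-AID and parental cells for 2 of 9 members, NR1D1 (3.49 ± 0.44, adjusted p = 1.44e-12) and BHLHE40 (3.02 ± 0.46, adjusted p = 9.43e-09), against 3.25% of all genes higher. PER1 had a difference of 1.11 ± 0.43 (adjusted p = 0.206). In parental cells 3 of 9 members were lower at 3 h, NR1D1 (-3.28 ± 0.33), BHLHE40 (-3.15 ± 0.34) and PER1 (-0.94 ± 0.31), against 13.1% of genes. In CNOT1-AID cells 0 of 9 were lower (3.89% of genes), and by edgeR 1 of 9, PER3, had an unadjusted p under 0.05, as did 11.4% of all genes (0 called with DESeq2). In CNOT4-AID cells 6 of 9 were lower (30.2% of genes), from NR1D1 (-3.66 ± 0.34) and BHLHE40 (-2.99 ± 0.35) to PER2 (-1.11 ± 0.30).

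In CNOT4-AID cells the fitted slopes of the 9 members over 12 h, with ERCC scaling, were all below the parental ones, but no difference was called. All 9 members declined over 12 h there, where 85.6% of all genes did. The slope difference to parental cells was called for 0 of 9 (0.845% of all genes in either direction), and 4 of 9 (PER1, PER2, CRY1 and NR1D2) had an unadjusted p under 0.05 by edgeR, as did 44.3% of all genes. DESeq2 called 3 of 9 and 25.1% of all genes. The median difference was -0.07 for the members and -0.08 for all genes, so the members moved with the rest. In the CNOT4-AID pair at 12 h ERCC RNA took 2.25% of counts in replicate 1 and 3.92% in replicate 2. Leaving out replicate 1 therefore keeps the library with the larger ERCC share. Without replicate 1 of the CNOT4-AID pair at 12 h, the pair with unequal ERCC shares, 5 of 9 were called, from -0.13 (PER2) to -0.10 (CRY1), as were 54.9% of all genes. Without replicate 1 of the parental pair at 0 h, PER1 was called (-0.13), with 6.63% of all genes. Over the first 3 h 0 of 9 differed from parental cells (0.0417% of genes), and 0 had an unadjusted p under 0.05 by edgeR or a call by DESeq2 (3.80% of all genes had such a p). BHLHE40 was then at 0.16, above its parental value.

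The parental pair at 0 h, which agreed least, sets the start of the parental curves, so the CNOT1-AID result was also fitted without each of its libraries. NR1D1 had 130.6% and 69.4% of the pair's mean, PER1 135% and 65.0% and NR1D2 82.1% and 118%. Without replicate 1 the slope difference stayed called for PER1 (0.24), PER2 (0.14), NR1D1 (0.41), BHLHE40 (0.34) and DBP (0.16). CRY2 lost its call there (0.08, adjusted p = 0.150), as it did without 5 other single libraries: replicate 2 of the parental pair at 12 h, either CNOT1-AID library at 0 h, and replicate 1 of the CNOT1-AID pairs at 3 h and at 12 h. CRY1 gained a call without either parental library at 0 h, and without replicate 2 of the parental pair at 6 h or of the CNOT1-AID pairs at 3 h and at 12 h (0.10 to 0.11). Without replicate 2 at 0 h PER1 also differed over the first 3 h (1.54, adjusted p = 0.0216).

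Already at 2 h of auxin, before triptolide, some members differed between lines. Against parental cells, NR1D1 (0.91 ± 0.21, 1.88-fold), PER1 (0.75 ± 0.20, 1.68-fold), CRY2 (0.65 ± 0.13, 1.57-fold) and PER2 (0.30 ± 0.10, 1.23-fold) were higher in CNOT1-AID cells. These were 4 of 9 members, against 9.66% of all genes higher and 4.84% lower. A comparison of lines at one time includes the untreated difference, which was 0.38 for NR1D1, 0.32 for PER1, -0.28 for CRY2 and -0.22 for PER2 in the steady-state set. Between 1 and 6 members were called when single libraries were left out. Without CNOT1-AID replicate 1 PER1 and PER2 lost their calls, without CNOT1-AID replicate 2 NR1D1 lost its call as well, and without parental replicate 2 PER2 lost its call. PER2 was also not called with library totals only (0.25, adjusted p = 0.108), with ERCC scaling (0.60, adjusted p = 0.237), without the filter (0.29, adjusted p = 0.201) or with a replicate block (0.30, adjusted p = 0.0560). Without parental replicate 1 BHLHE40 (0.33) and DBP (0.90) were called, and without parental replicate 2 NR1D2 was (0.63). In CNOT4-AID cells BHLHE40 was lower than in parental cells (-0.78 ± 0.12, 1.72-fold), 1 of 9 members against 12.0% of genes in either direction. With ERCC scaling, under which the median of all genes stood at 0.31, that difference was -0.52 and not called (adjusted p = 0.43).

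Steady-state rises and decay can be set side by side for the members tested in both sets. NR1D1 and BHLHE40, with the shortest parental half-lives, rose 4.58- and 3.63-fold at 8 h of auxin in CNOT1-AID cells. CRY2, with a parental half-life of 8.11 h, rose 3.86-fold at 8 h and 8.18-fold at 24 h. NR1D2, whose parental slope was not called (-0.05 ± 0.03 per hour, 69.0% ± 8.31 left at 12 h), rose 1.93-fold at 8 h. CRY1, with 45.4% ± 2.94 left at 12 h in parental and 98.4% ± 21.8 in CNOT1-AID cells, had no called rise. PER1 (3.26 h), DBP (4.41 h) and PER2 (5.71 h) rose 5.30-, 2.62- and 2.21-fold at 8 h. The order by half-life and the order by rise at 8 h matched in part. NR1D2 and CRY1, with the flattest parental slopes, rose least, whereas CRY2 rose more than DBP and PER2. A link between half-life and rise was not tested.

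In the activating arm of the loop some genes fell and 1 rose. Of the 5 tested genes of that arm, CLOCK, ARNTL and ARNTL2 fell in CNOT1-AID cells at 24 h, where 34.8% of all genes were lower, and RORA rose, where 36.7% were higher. CLOCK fell by 0.66 (-0.66 ± 0.11, adjusted p = 3.69e-05) and ARNTL by 0.75 (-0.75 ± 0.20, adjusted p = 0.00303). With ERCC scaling CLOCK was at -0.29 and ARNTL at -0.39, and neither was called. ARNTL2, the paralogue of ARNTL, fell most of the listed genes (-2.84 ± 0.14), and RORA, an activator of RORE genes named after its value was seen, rose (1.42 ± 0.10). At 8 h CLOCK (-0.15 ± 0.11) and ARNTL (-0.25 ± 0.20) were not called, ARNTL2 fell (-1.56 ± 0.14), and CLOCK was called without untreated replicate 1 (-0.32).

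Of 26 other clock genes, 23 were tested. At 8 h 14 were higher and 2 lower, and at 24 h 12 were higher and 4 lower, with a median of 0.36 and 0.35. Over all genes 33.1% were higher and 29.8% lower at 8 h, and 36.7% and 34.8% at 24 h. Regulators of PER and CRY turnover included USP2 (2.22 ± 0.19 at 24 h), a ubiquitin protease, and BTRC (1.79 ± 0.11), the F-box protein that marks PER for destruction. The size for USP2 depended more on the processing, from 1.65 to 3.28 over the alternatives, against 1.71 to 2.15 for BTRC. Of the 9 genes listed as post-translational regulators, 6 rose and 1 fell at 8 h, and 4 rose and 1 fell at 24 h, the latter near the share of all genes. The one that fell at both times, TIMELESS (-0.39 and -0.86), was named after its values were seen. All 6 rhythmic output genes were higher at 24 h, among them TSC22D3 (1.98 ± 0.10), which encodes GILZ, and 5 of 6 were higher at 8 h, led by KLF9 (1.59 ± 0.08). Of 3 tested output factors, 2 rose at 8 h and 1 at 24 h. In the difference between CNOT1-AID and parental responses 12 of 23 were higher at either time, with 2 lower at 8 h and 4 at 24 h, against 27.0% and 32.3% of all genes higher and 23.2% and 29.6% lower. In CNOT4-AID cells 0 of 23 were called at 8 h, and at 24 h CLOCK (0.44 ± 0.11, adjusted p = 0.0354) and RORA (0.36 ± 0.10, adjusted p = 0.0455) were higher. Both of those calls were lost when single libraries were left out: CLOCK without any of the 4 and RORA without any of the 4.

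**Figure D5:**
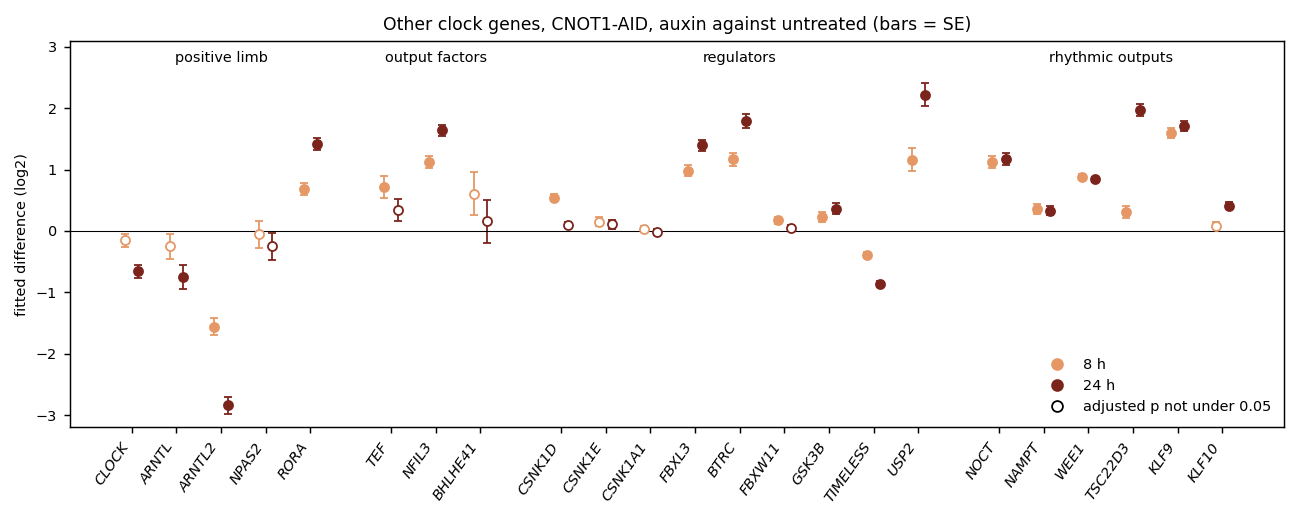
Fitted difference between auxin and untreated CNOT1-AID cells (log2, y axis) for 23 other clock genes, grouped by role, at 8 h and 24 h, with bars for the SE and open points where the adjusted p was not under 0.05. CLOCK, ARNTL, ARNTL2 and TIMELESS lie below 0 at 24 h with a call, and ARNTL2 reaches -2.84.

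In CNOT1-AID cells loss of mRNA was slower with a call for 13 of 24 of these genes, and 11 were not called. The triptolide slope was higher in CNOT1-AID than in parental cells for these 13, against 18.8% of all genes, and lower for 0, with the largest differences for NFIL3 (0.58 ± 0.09), a repressor of D-box genes, and WEE1 (0.45 ± 0.05), a mitotic kinase under clock control. CLOCK was not called (0.03 ± 0.03, adjusted p = 0.639), and ARNTL was (0.10 ± 0.04, adjusted p = 0.0385). The ARNTL call was lost without any of 7 single libraries: replicate 1 of the parental pair at 3 h, either parental library at 12 h, either CNOT1-AID library at 0 h, and replicate 1 of the CNOT1-AID pairs at 3 h and at 12 h. At 2 h of auxin ARNTL was higher in CNOT1-AID than in parental cells (0.45 ± 0.14), a call also lost without parental replicate 1 or either CNOT1-AID library. In untreated cells ARNTL was higher at 24 h than at 8 h (0.57 ± 0.12, adjusted p = 0.00493).

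Most of the tested members varied together over the 12 steady-state group means, and CRY1 and NR1D2 did so less. For the members other than CRY1 and NR1D2, the 2 groups with CNOT1 depletion lay above all others and weigh heavily on r. As a description, Pearson's r among PER1, PER2, CRY2, NR1D1, BHLHE40 and DBP ran from 0.776 (PER2 and DBP) to 0.974 (CRY2 and BHLHE40). CRY1 had r from 0.350 to 0.517 with the others, and NR1D2 from 0.477 (with CRY1) to 0.805 (with NR1D1). Over the same means the genes most like a member in pattern were PLEKHG3 (r 0.995) and BCOR (0.994) for BHLHE40, LRRC8E (0.995) and RCL1 (0.994) for CRY2, and CBFA2T2 (0.991) and DEDD (0.989) for PER1. For NR1D1 they were MNT (0.984) and HOXA6 (0.983), and for DBP PHF21A (0.984) and ZMYM3 (0.984). PER2 was closest to SIM2 (0.977) and SLC29A1 (0.973), NR1D2 to ARHGAP11A (0.974) and NEIL3 (0.971), and CRY1 to MTR (0.834) and ST7L (0.811).

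Some members share exonic bases with a neighbour. In GENCODE 29, 263 exonic bases of NR1D1 (9.49%; chr17:40092787-40100725, minus strand) also belong to THRA on the opposite strand, which stood at 1.67 to 5.33 TPM. For DBP (chr19, minus strand) 661 bases (10.1%) belong to SPHK2 on the opposite strand, at 7.27 to 17.43 TPM. PER3 shares 868 bases (10.72%) with UTS2, at 0.0 to 0.14 TPM. The labels name a stranded kit, and whether counting used the strand is not given in the sources used here.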

How the data were processed

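RNA-seq of 48 DLD-1 libraries was used, and the nascent RNA data of the series were not analysed here. The steady-state table was deposited as TPM per gene for 24 libraries, and the triptolide table was deposited as raw read counts per gene for 24 libraries. STAR 2.5.1b, RSEM, featureCounts, SAMtools and DESeq2 and the builds hg38 and GRCh38 are listed, with no order, per the submitters' processing notes. How TPM was computed is not given in the sources used here.

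TPM was scaled with TMM, transformed as log2(value + 0.5) and fitted with limma 3.58.1 (trend, robust; 12 groups of 2, 12 residual degrees of freedom) over 14921 genes with at least 1 TPM in at least 2 libraries. The counts were fitted with edgeR 4.0.16 (quasi-likelihood, robust) over 16806 genes, scaled to 56 of 92 ERCC sequences with a mean of at least 10 counts for slopes (18 residual degrees of freedom) and early changes, and with TMM at 0 h. P-values were adjusted by Benjamini-Hochberg over all genes of a comparison, with a threshold of 0.05. Both scripts were tested on simulated data in R 4.3.3. DESeq2 1.42.0, other scalings, filters, pseudocounts, a replicate block and leaving out each library were tried.

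The members and lists were chosen with earlier results of these data known. All 10 members and CLOCK and ARNTL are named, with the 4 largest called changes of the other clock genes in CNOT1-AID cells at 24 h and at most 2 in other comparisons. Nothing says that replicates were separate cultures, so the spread behind each p-value may be technical.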

Additional observations from a re-analysis of the deposited data

Results flagged for a closer look

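Differences that were themselves tested, between lines or between times, were called for these members. In the auxin response of CNOT1-AID minus parental cells at 8 h (limma, log2) PER1 had 2.46, PER2 0.92, CRY2 1.95, NR1D1 2.14, NR1D2 0.86, BHLHE40 1.77 and DBP 1.30. At 24 h PER1 had 2.23, PER2 1.56, CRY2 2.90, NR1D1 1.28, BHLHE40 1.66 and DBP 1.06. Over all genes 27.0% were higher in that comparison at 8 h and 32.3% at 24 h. In CNOT1-AID cells the response at 24 h minus that at 8 h was 1.08 for CRY2, 0.59 for PER2, -1.03 for NR1D1 and -1.01 for NR1D2. In that comparison 17.4% of all genes were higher and 18.9% lower, so the members were near the share of other genes.

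The triptolide slope of CNOT1-AID minus parental cells (edgeR, log2 per hour) was 0.27 for PER1, 0.15 for PER2, 0.098 for CRY2, 0.49 for NR1D1, 0.40 for BHLHE40 and 0.19 for DBP. Over the first 3 h the difference was 3.49 for NR1D1 and 3.02 for BHLHE40 (log2). Of all genes 18.8% were higher by slope and 3.25% over the first 3 h. What underlies these differences was not tested.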

How the results depend on the processing

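Over 2990 values of single members under an alternative, 2855 stayed called in the same direction or stayed uncalled, 61 gained a call, 71 lost one and 3 changed sign with a call on one side. Of those that stayed uncalled, 192 changed sign. In CNOT1-AID cells 7 or 8 members were called at 8 h and 6 or 7 at 24 h in every alternative run. In CNOT4-AID cells at 24 h, where 0 were called, ERCC scaling and a pseudocount of 0.1 gave 1, and protein-coding genes only and a filter of 5 TPM gave 3. In untreated CNOT1-AID cells (4 called) ERCC scaling gave 1, no filter 2, only the compared groups 1 and leaving out single libraries 2 to 4. In untreated CNOT4-AID cells (2 called) median-of-ratios scaling gave 1, ERCC scaling 0, no scaling 6, a pseudocount of 1 gave 1, no filter 0, only the compared groups 0 and leaving out single libraries 0 to 1. The CNOT1-AID slope (6 called) gave 3 over 0 to 6 h only, and the CNOT4-AID slope (0 called) gave 3 with DESeq2 and 0 to 5 without single libraries. At 2 h of auxin, CNOT1-AID (4 called) gave 1 to 6 without single libraries, and CNOT4-AID (1 called) gave 0 with ERCC scaling and 1 to 4 without single libraries. The 4 came without parental replicate 2, when PER1 (-0.48), DBP (-0.57) and NR1D2 (0.52) were called with BHLHE40.

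Values that changed sign with a call in at least one of the fits were, over members and the other named genes, CRY1 in untreated CNOT4-AID cells without scaling (-0.25), CRY1 and CLOCK in the parental slope over 0 to 6 h (0.0070 and 0.0058), CLOCK in that slope with TMM (0.0036), NR1D2 and CLOCK in the CNOT4-AID slope with TMM (0.019 and 0.0017), ARNTL in the CNOT1-AID slope difference over 0 to 6 h (-0.0064), and CLOCK in CNOT4-AID at 2 h of auxin without parental replicate 2 (0.22). The cause was not tested.

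ERCC scaling of the time comparison gave 80 higher and 5517 lower genes against 837 and 696, and no scaling of untreated CNOT4-AID gave 285 and 8397 against 1563 and 1454. With ERCC scaling the difference to parental cells gave 6863 and 867 against 4035 and 3469 at 8 h and 6274 and 2061 against 4823 and 4414 at 24 h, the CNOT1-AID change from 8 h to 24 h 1119 and 2167 against 2602 and 2820, and CNOT4-AID at 24 h 472 and 2 against 312 and 361. At 2 h of auxin it gave 841 and 172 against 1623 and 814 for CNOT1-AID and 484 and 178 against 1325 and 688 for CNOT4-AID. With TMM the CNOT4-AID slopes split 4549 higher and 5753 lower, against 24 and 14389 with ERCC scaling, and the parental slopes 4581 and 5236, against 125 and 8109. Libraries with the same replicate number showed no strong shared effect between groups. Correlations of replicate differences ran from -0.21 to 0.10 over the 6 auxin and untreated pairs of the steady-state set. They ran from -0.22 to 0.20 over all 66 pairs of its groups, and from -0.29 to 0.16 in the triptolide set. Such values cannot show whether libraries of the same number were prepared together. A replicate block gave 7 members at 8 h and 6 at 24 h in CNOT1-AID cells, 4 against 3 for time, 5 against 4 for untreated CNOT1-AID and 3 against 4 at 2 h of auxin, and no other count moved. TPM keeps no depth, and PER3 and CIART lie at its low end.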
